A study of Mus musculus with 45 samples.

Results

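Acetylation of histone H3 at lysine 9 (H3K9ac) was compared between tau and wild type mice aged 11 months, over every acetylated domain on the 19 mouse autosomes. A domain is a stretch of genome that the submitters called as enriched in H3K9ac. The comparison covers 43341 autosomal domains of the 44165 in the common set, and 6 of the 23 H3K9ac libraries of the series. The libraries were chosen by their titles, 3 from tau mice and 3 from wild type mice.

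The study asked where H3K9ac differs between mouse models of neurodegeneration and their controls, by chromatin immunoprecipitation and sequencing (ChIP-seq) of hippocampus, a brain region needed for memory. The 11-month tau mice were males that carry human tau (MAPT) with the P301S mutation, and the wild type controls were males of the same age. The labels name neither the mouse line nor the promoter that drives the tau gene, and nothing states that the libraries come from separate mice, so p-values measure only the spread between these libraries, which may be technical. Tau and wild type mice aged 6 months (2 and 3 libraries) were all females, so age and sex change together between the ages. The whole hippocampus was used, so a change in the acetylation of a cell type and a change in the number of its cells cannot be told apart.

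Acetylated lysines on histone tails loosen chromatin and are read by proteins that help transcription. H3K9ac marks active promoters and, more weakly, active enhancers. Most promoters carry a short domain, while broad domains tend to lie at genes that define a cell's identity. P301S is a mutation of human frontotemporal dementia, and mice that carry it form tau aggregates in neurons, with activation of glial cells and loss of neurons at older ages.

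Autosomal domains took up 52.2 Mb of the mm9 genome, and their width was 771 bp at the median, with quartiles of 375 and 1681 bp. The 6 libraries held 4.10 to 6.18 M reads in domains. Levels are given as CPM, the usual read count per unit of sequencing depth, taken over the reads in domains after TMM scaling, which assumes that most domains do not change. Cross correlation, a measure of ChIP enrichment that the labels give, was 0.228 ± 0.0263 (SD, n = 3) in tau and 0.313 ± 0.0250 (SD, n = 3) in wild type libraries, with no overlap. Genotype and enrichment therefore cannot be told apart in these 6 libraries. With cross correlation as a covariate in the model, 317 domains were called in place of 4163, with 90 higher and 227 lower. The changes of the 4163 domains kept their sign in that fit in 97.8%. Their median absolute size was 0.57 against 0.58 log2 units, while the median standard error went from 0.12 to 0.27. A larger error also enlarges absolute changes, so like medians do not show that each change stayed the same. The log2 change of the domain at chr3:88010093-88021895 went from −0.51 to −0.34, and that at chr4:136445026-136448802 from 1.42 to 2.23.

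The 4 domains with the largest rise in tau mice lay together on chromosome 2, beside another strongly raised domain, within 36.2 kb of mm9 (chr2:131729571-131765732). Of the 7 domains from the first to the last, 5 were called higher in tau mice. The 4633 bp domain at chr2:131734485-131739117, which was strongly acetylated in wild type mice as well, had 376, 414 and 359 CPM in the tau libraries and 95.3, 100.5 and 93.5 CPM in the wild type libraries. Its log2 change was 1.99 ± 0.06 (SE; adjusted p = 6.68e-28, edgeR). The other 4 were weak in wild type mice, at means of 1.05 to 7.59 CPM, and reached 15.2 to 99.8 CPM in tau mice, with log2 changes of 3.71 to 4.27. Domains between them were not called. The domain at chr2:131757794-131759682, which lies between raised domains, had 0.994 times the wild type level in the unscaled CPM, and the 108 bp domain next to it 1.92 times, without a call. These levels are ChIP reads that were not set against reads of the DNA before immunoprecipitation (input). The amount of DNA in this region was therefore not tested.

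The same 5 domains served as a check of the labels in the other libraries. Summed over them, in CPM without TMM scaling, the 11-month tau libraries held 588, 651 and 615 and the wild type libraries 108, 111 and 109.5. At 6 months the tau library of replicate 2 held 616, and the library labelled as tau replicate 1 held 120.2, against 122 to 135 in wild type. The 12 libraries of the other mouse model of the series held 121 to 159.6. The 5 domains were chosen by the difference between the 11-month groups, so the 11-month values are no check. At 6 months, tau replicate 2 stood far above the wild type libraries. The library labelled 6-month tau replicate 1 was at the wild type level. It goes against its label in this region, so comparisons with 6-month tau mice are given with and without it. As background, a widely used P301S line expresses tau from the mouse prion protein gene promoter. Whether these mice are of that line is not known from the labels, and no gene was assigned to the region.

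**Figure D1:**
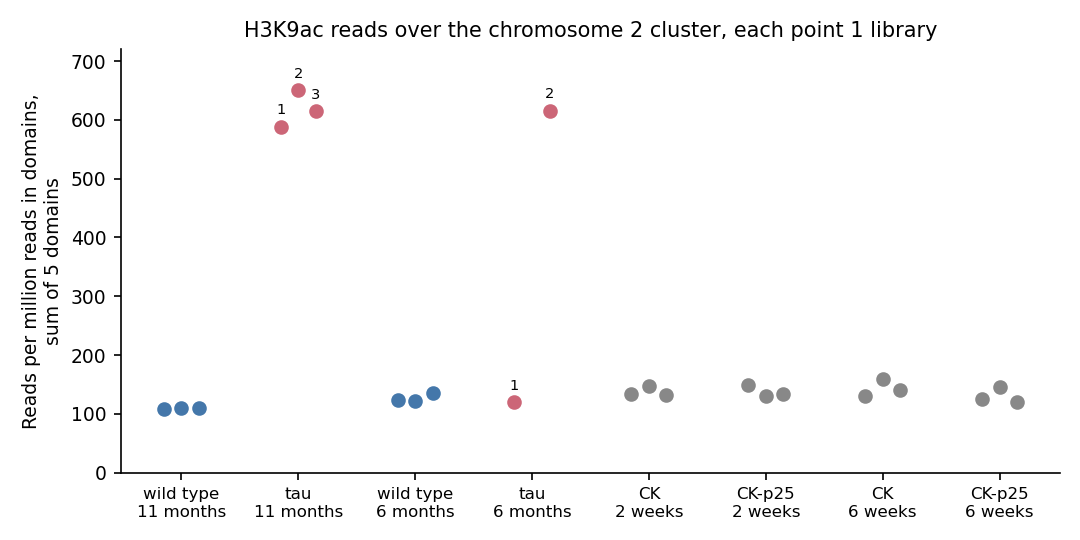
CPM of the reads in domains (y axis, no TMM scaling), summed over the 5 raised domains of the chromosome 2 cluster, for each of the 23 H3K9ac libraries (1 point each) by group (x axis), with replicate numbers beside the tau points. The 3 tau libraries at 11 months and tau replicate 2 at 6 months lie at 588 to 651, and all others, the library labelled 6-month tau replicate 1 included, at 108 to 159.6.

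Across the autosomes, losses of H3K9ac outnumbered gains. Of 41979 domains tested (1362 had too few reads), 1555 were called higher and 2608 lower in tau mice, at an adjusted p under 0.05 in edgeR's quasi-likelihood test. Over all 42760 domains tested, sex chromosomes included, 9.93% were called, 3.67% higher and 6.27% lower. An unadjusted p under 0.05 was reached by 9119 autosomal domains. With scaling by library totals in place of TMM the split was 2085 higher and 2314 lower, so that gains made up 47.4% of the calls against 37.4% with TMM. Domains called by the model are named gains and losses from here on.

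Gains and losses differed in size and in the kind of domain. Gains had a median log2 change of 0.64, and 332 of them were at least 2-fold. Losses had a median of −0.56, and 286 were at least 2-fold. These sizes are of called domains alone, and a weaker domain needs a larger change to be called. Losses were broad and strong domains, with a median width of 2302 bp and a median level of 47.9 CPM in the 6-month wild type libraries, which take no part in the comparison. Gains had a median width of 1407 bp and a level of 14.3 CPM, and all domains tested 808 bp and 7.34 CPM. Losses covered 7.10 Mb and gains 2.70 Mb. The 3 tau libraries lay above all 3 wild type libraries in 1436 of the 1555 gains and below them in 2510 of the 2608 losses. Over all domains tested, the same held in 11.9% (above) and 13.5% (below).

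**Figure D2:**
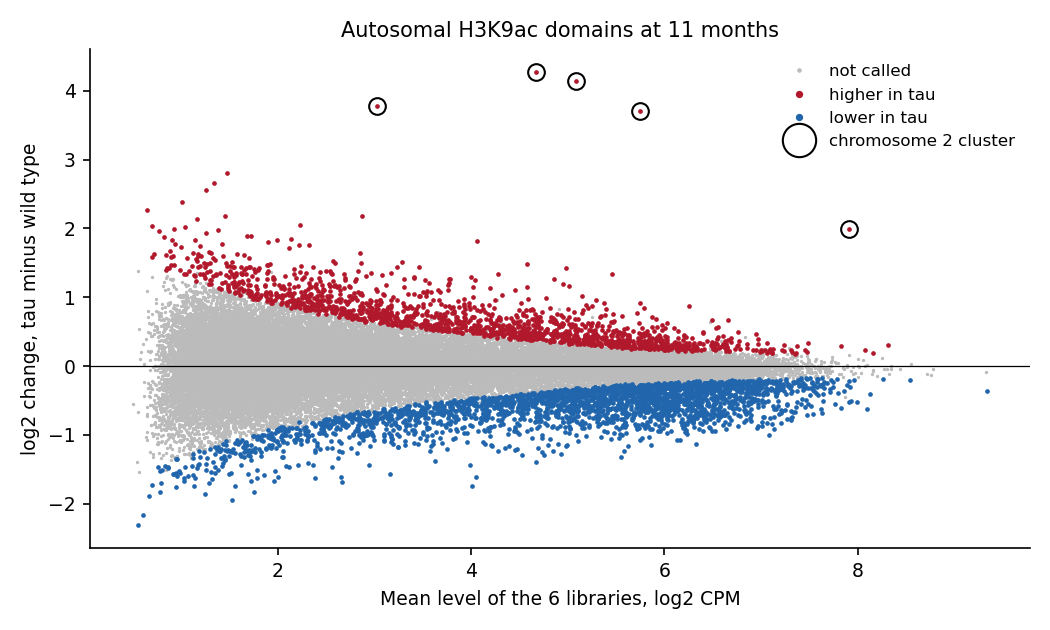
Log2 change, tau minus wild type (y axis), against the mean level of the 6 libraries in log2 CPM (x axis) for the 41979 autosomal domains tested, 1 point each. Gains are red, losses blue and other domains grey. The 5 ringed domains of the chromosome 2 cluster have log2 changes of 1.99 to 4.27.

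The losses with the smallest adjusted p were mostly domains of several kb, strongly acetylated in wild type mice, whose level in tau mice was 0.400 to 0.564 times that in wild type mice. The 5900 bp domain at chr9:106554205-106560104 had 112, 121 and 98.8 CPM in wild type libraries and 54.0, 53.0 and 44.6 in tau libraries (log2 change −1.13 ± 0.08, adjusted p = 2.1e-13). A 3206 bp domain at chr1:122236851-122240056 fell from 69.8, 73.7 and 57.9 CPM to 23.8, 29.8 and 27.1, the deepest of the 6 (−1.33 ± 0.10). The groups did not overlap at either domain, and the gap between them was wider than the spread within each. Domains chosen by adjusted p tend to have such a gap, so it is a description. Over all domains tested, the 3 tau libraries lay below all 3 wild type libraries in 13.5%.

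The other 4 losses chosen by adjusted p followed the same form. The 9607 bp domain at chr9:58043494-58053100 had 165, 176 and 172 CPM in wild type and 97.5, 104 and 87.7 in tau libraries (−0.83 ± 0.07). The 6531 bp domain at chr15:98633780-98640310 had 180.0, 180.3 and 170.1 CPM against 94.7, 113 and 90.8 (−0.84 ± 0.07). At chr2:28061404-28068757, a domain of 7354 bp, the levels were 190.3, 184 and 167 CPM against 95.5, 98.8 and 76.3 (−1.01 ± 0.07). All 3 of these domains were in the highest of 5 equal classes of domains by level and held 76.3 CPM or more in every tau library. The 4504 bp domain at chr16:18127873-18132376 went from 119, 112 and 114 CPM to 62.1, 69.6 and 55.4 (−0.89 ± 0.07).

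The deepest losses were found in narrower and weaker domains, whose change has a larger standard error, so that a small change there does not pass the test. The 3 deepest losses with at least 5 CPM in wild type mice were 567 to 2550 bp wide. The domain at chr6:65768348-65770897 fell from 25.3, 26.1 and 23 CPM to 6.45, 7.81 and 7.99 (−1.74 ± 0.17). The domain at chr7:106046176-106046742 had 5.29, 6.24 and 4.40 CPM in wild type and 1.66, 0.976 and 1.67 in tau libraries (−1.83 ± 0.35). The domain at chr5:143170112-143170956 had 8.94, 10.1 and 9.78 CPM against 1.47, 3.90 and 3.72 (−1.69 ± 0.27). In none of these did the groups overlap, as in 2510 of all 2608 losses. The strongest losses by adjusted p in the narrower width classes were at chr5:31394177-31396118 (1942 bp, −1.02 ± 0.10), chr6:117960606-117961445 (840 bp, −1.10 ± 0.17) and chr16:94346749-94347203 (455 bp, −1.62 ± 0.29). With cross correlation as a covariate, the log2 change of the chromosome 7 domain was −1.53 (adjusted p = 0.50), that of the 840 bp domain −0.48 (adjusted p = 0.72) and that of the 455 bp domain −0.79 (adjusted p = 0.73).

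Outside the chromosome 2 cluster, which takes 5 of the 6 places for gains, the remaining gain by the same rule was a 3436 bp domain at chr10:79535676-79539111. It had 25.8, 22.4 and 26.7 CPM in wild type and 66.7, 52.5 and 69.8 in tau libraries (log2 change 1.34 ± 0.10, adjusted p = 1.56e-12). The next 5 gains by adjusted p were added after their values were seen. They include a 3777 bp domain at chr9:85218538-85222314, with 42.0, 33.9 and 35.5 CPM in wild type and 75, 63.5 and 72.4 in tau libraries (0.92 ± 0.09). A 2796 bp domain at chr11:86398403-86401198 had 13.1, 10.3 and 14.5 CPM against 38.3, 26.6 and 40.9 (1.48 ± 0.15).

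Another added gain, the 3777 bp domain at chr4:136445026-136448802, had 19.9, 17.4 and 14.8 CPM in wild type and 55.1, 35.1 and 47.7 in tau libraries (1.42 ± 0.14). Tau replicate 2, the library with the lowest cross correlation and the fewest reads, was the lowest tau library at each of these gains, and still above every wild type library. The 2155 bp domain at chr17:34323430-34325584 had 38.6, 35.1 and 45.0 CPM against 69.1, 63.2 and 80.8 (0.85 ± 0.09). With cross correlation as a covariate its log2 change was 0.78 (adjusted p = 0.083). The widest of the named gains, 5482 bp at chr2:160189559-160195040, is outside the chromosome 2 cluster and went from 49.1, 49.7 and 40.4 CPM to 76.9, 66.1 and 78.2 (0.68 ± 0.09).

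**Figure D3:**
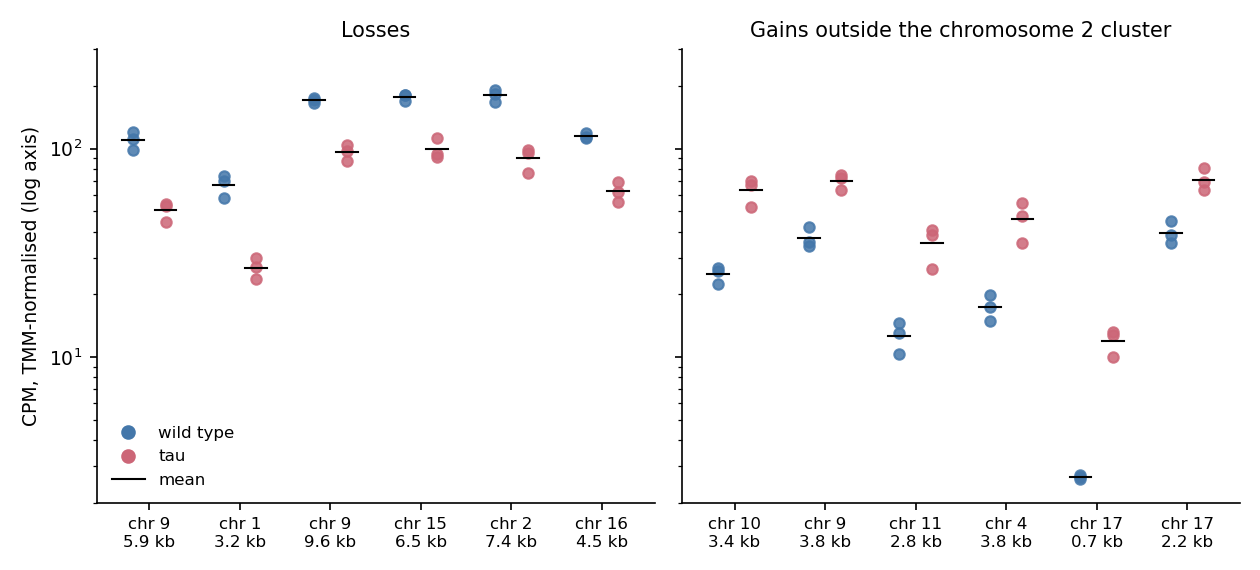
Levels in CPM after TMM scaling (log axis) of the 6 losses with the smallest adjusted p and of the 6 such gains outside the chromosome 2 cluster, labelled by chromosome and width. Blue points are the 3 wild type and red points the 3 tau libraries at 11 months, and black lines are group means. The groups do not overlap at any of the 12 domains, which were chosen by adjusted p.

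The share of domains lost rose with width (upper bounds of the width classes are excluded). Among domains under 500 bp, 1.07% were losses and 1.57% gains, and among those of 500 to 1000 bp 2.68% and 3.23%. Domains of 1000 to 2000 bp had 6.94% losses and 5.35% gains, and those of 2000 to 5000 bp 16.4% and 5.82%. Of the 709 domains of at least 5000 bp, 284 (40.1%) were losses and 50 (7.05%) gains. A wide domain holds more reads, and its change is estimated more closely: the median standard error fell from 0.36 in the narrowest to 0.07 in the widest class. The share called moves with that precision, whereas the median change does not depend on calls. It was 0.06 in the narrowest and −0.12 in the widest class, against 0.02 over all domains tested. In the widest class it stayed below 0 with library totals (−0.08) and with loess offsets that remove any trend with level (−0.03).

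Width and level were entangled (Spearman's rho of 0.96 across domains, which are not independent), so domains were also put in 5 equal classes by the level per kb of their width in 6-month wild type mice, which were added after seeing the data. In the thinnest class, under 8.01 CPM per kb, 6.50% of domains were gains and 2.09% losses, and the median log2 change was 0.13. In the densest class, over 21.2 CPM per kb, 1.74% were gains and 12.5% losses, with a median of −0.02 that turned positive with library totals (0.02) and loess offsets (0.03). In the 3 classes between, from thin to dense, gains made up 2.51%, 2.63% and 5.25% and losses 2.28%, 3.22% and 11.1%. The share of losses thus rose with density across all 5 classes, while the share of gains had no such order. The median standard error was 0.27, 0.29, 0.31, 0.15 and 0.08 from thin to dense. The share called moves with that precision, so it does not by itself show larger losses in denser domains. In the class next below the densest, the median log2 change was 0.0007.

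The share of losses also rose with width among domains of like density, as did the precision on which calls depend. Within the densest class, losses made up 6.11% of domains of 1000 to 2000 bp, 15.3% of those of 2000 to 5000 bp and 44.6% of those of at least 5000 bp, where the median log2 change was −0.14. Gains stayed between 1.48% and 3.17% at these 3 widths, where the median standard error was 0.09, 0.07 and 0.06. Within the thinnest class, domains of 2000 to 5000 bp had 14.6% gains and 4.13% losses, with a median of 0.13. A high share of gains at that width was found in the 3 middle classes as well, at 13.7%, 15.6% and 10.6% from thin to dense, where losses made up 9.95%, 12.1% and 24.0%. The median change in the thinnest class lay between 0.12 and 0.16 at each of the 4 widths below 5000 bp.

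**Figure D4:**
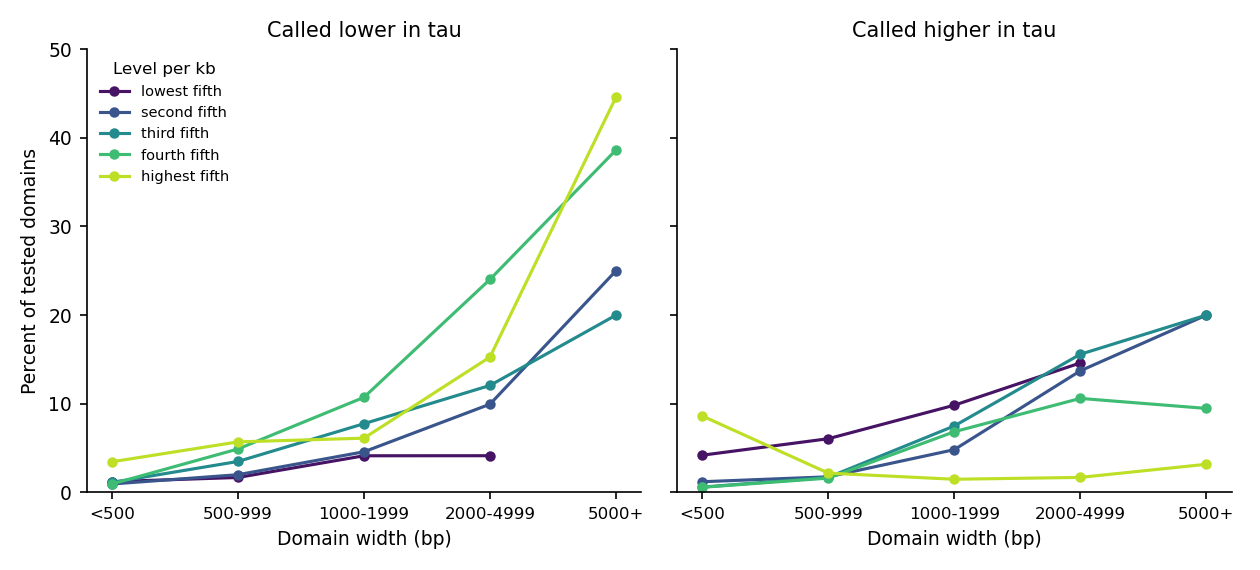
Percent of tested autosomal domains called lower (left) and higher (right) in tau mice (y axis) by domain width in bp (x axis), with a line for each of the 5 classes of level per kb in 6-month wild type mice. Losses reach 44.6% in the widest and densest domains, and gains of the thinnest class rise from 4.19% to 14.6% with width. At 5000 bp or more, the points of the classes next above the thinnest rest on 20 and 40 domains, and no point is drawn for the thinnest.

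In the widest and in the thinnest class, the same contrast was seen in the share of each library's reads, which uses neither calls nor a model. Domains of at least 5000 bp held 10.4%, 10.6% and 10.2% of the reads in the wild type libraries and 9.61%, 9.56% and 9.38% in the tau libraries. The groups did not overlap, and the mean difference of −0.866 percentage points had an exact two-sided permutation p of 0.1, the smallest that 3 against 3 libraries can give (0.13 adjusted over 19 classes). The thinnest class held 5.06%, 5.06% and 5.18% in wild type and 5.79%, 5.44% and 6.10% in tau libraries, again without overlap (exact permutation p = 0.1). Most of the 19 classes had no overlap, all 5 classes by level among them, so a lack of overlap does not set these classes apart. Shares within a set of classes add up to the whole, so they move together. At 2000 to 5000 bp the groups overlapped, with 50.9%, 50.8% and 50.6% in wild type and 50.2%, 50.7% and 49.9% in tau libraries (exact permutation p = 0.2). In the densest class the groups overlapped as well. The wild type libraries held 62.4% to 62.6%, tau replicates 1 and 3 held 61.4% and 60.8%, and tau replicate 2 held 62.5% (exact permutation p = 0.2). The tau groups also had the lower cross correlation, whose part in these shares was not tested.

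Set against 6-month wild type mice, which differ in age and sex, the 11-month tau mice stood farther off than the 11-month controls, in losses and in gains. Over the losses, the median log2 level relative to the mean of the 6-month wild type libraries was 0.07 in 11-month wild type and −0.47 in 11-month tau mice. The tau mean lay below all 3 of the 6-month wild type libraries in 94.9% of losses, against 28.5% of all domains tested. The 11-month wild type mean moved the other way, and lay above all 3 in 44.6% of losses, against 24.4% of all. Over the gains, the medians were −0.10 and 0.47, and the tau mean lay above all 3 in 92.2%, against 29.9% of all domains tested. The 11-month wild type mean lay below all 3 in 41.0% of gains, against 22.4% of all. Over all domains tested the medians were 0.00 and 0.01. Gains and losses were chosen by the difference between the 11-month groups, so these levels are a description. Cross correlation was 0.242 to 0.248 in the 6-month wild type libraries and 0.206 to 0.257 in the 11-month tau libraries, and its part in these levels was not tested.

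Neighbouring domains shared a direction more often than the overall share of calls, a description with no test. Of the next domains on either side of a gain, 13.6% were gains, against 3.70% of all tested domains, and of those beside a loss 15.6% were losses, against 6.21%. At gaps under 2 kb the shares were 24.5% and 27.7%, and only 1 of the pairs at that gap had opposite directions. At gaps of at least 200 kb, 4.2% of the neighbours of gains were gains and 11.3% of the neighbours of losses were losses, close to the 3.18% and 12.2% of all domains with such gaps. The log2 changes of neighbours had a Spearman's rho of 0.45 at gaps under 2 kb and 0.08 at 200 kb or more, across pairs of domains that share libraries.

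**Figure D5:**
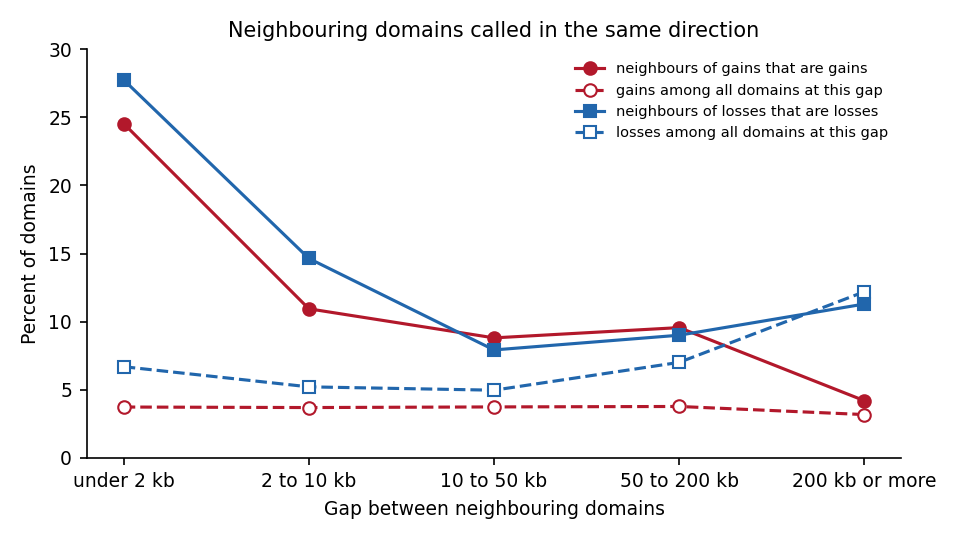
Percent of domains (y axis) by the gap to the neighbouring domain (x axis). Filled points give the share of neighbours of gains that are gains (red) and of neighbours of losses that are losses (blue), and open points the share of gains and losses among all domains with such a gap. The filled points fall from 24.5% and 27.7% at gaps under 2 kb to 4.2% and 11.3% at 200 kb or more.

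The share of losses was higher among domains with few others around them, as a description with no test of the calls. Domains were put in 4 equal classes by the number of others within 1 Mb. In the class with at most 35, 8.14% were losses, against 5.37%, 5.77% and 5.53% in the other classes, while gains made up 3.34% to 3.97% in all 4. Among isolated domains of at least 5000 bp, 84 of 170 (49.4%) were losses, against 75 of 219 (34.2%) in the class with the most neighbours. The isolated class held 27.0%, 27.1% and 27.0% of the reads in wild type and 26.6%, 26.8% and 26.4% in tau libraries. The groups did not overlap (exact permutation p = 0.1), as in most of the classes compared in this way.

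Runs of neighbouring domains called the same way held 371 gains (23.9%) in 160 runs and 738 losses (28.3%) in 331 runs. The longest run of gains had 7 domains at chr19:34658165-34717089, with log2 changes of 0.89 to 2.05. Its strongest domain by adjusted p, at chr19:34714541-34715995, had 9.60, 9.36 and 8.96 CPM in wild type and 24.9, 15.9 and 27.1 in tau libraries (1.30 ± 0.17). The next had 5 domains in 4.61 kb at chr17:34876855-34881468, with changes of 1.5 to 2.80. There the domain at chr17:34879601-34880286 had 2.65, 2.73 and 2.61 CPM in wild type and 12.7, 10 and 13.2 in tau libraries (2.17 ± 0.24).

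The longest run of losses had 5 domains at chr3:88003527-88033381, with changes of −0.75 to −0.32. At its core lay a domain of 11803 bp (chr3:88010093-88021895) with 292, 301 and 266 CPM in wild type and 217, 207 and 180.0 in tau libraries (−0.51 ± 0.06). Of the 9 runs of 4 losses, the one with the smallest span, 7.54 kb, lay at chr15:79627297-79634833, where the domain at chr15:79631845-79634833 went from 79.9, 65.4 and 64.2 CPM to 43.9, 42.2 and 31.2 (−0.85 ± 0.10). With cross correlation as a covariate these 2 domains had log2 changes of −0.34 and −0.36 and adjusted p of 0.33 and 0.60.

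Gains and losses were found on every autosome. Gains ranged from 2.29% of tested domains on chromosome 14 to 5.27% on chromosome 19, and losses from 4.03% on chromosome 17 to 7.44% on chromosome 15. Chromosome 17 was the only autosome with more gains (107) than losses (82).

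Summed over 1 Mb bins, small shifts passed the test in many places. Of 2158 autosomal bins, tau mice had 375 with a higher and 423 with a lower level. Over all 2277 bins tested, 36.3% were called, 16.7% higher and 19.6% lower. The median size was 0.18 log2 units among those called. Of the higher bins, 77 held no gain, whereas 1 of the lower bins held no loss. Gains and losses occurred together in 482 bins. The bin with the smallest adjusted p was the one that holds the chromosome 2 cluster.

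Other named bins ranged from a few domains moving far to many moving a little. Bins were chosen by adjusted p, so a shared sign of their domains follows in part from the choice. Over all autosomal domains tested, 3.70% were gains and 6.21% losses, and the median log2 change was 0.02. On chromosome 7 from 111 to 112 Mb, 6 of 8 domains were gains and the bin rose from 33.0, 29.1 and 33.4 CPM to 65.5, 57.7 and 81.8 (log2 change 1.11 ± 0.12). On chromosome 3 from 95 to 96 Mb, 58 of 71 domains had a positive change. There 12 domains were gains and 1 was a loss, and the bin rose by 0.18 ± 0.02. On chromosome 11 from 56 to 57 Mb all 11 domains had a negative change, 5 of them losses, and the bin fell from 172, 183 and 174 CPM to 100.2, 121 and 99.8 (−0.73 ± 0.07). The bin on chromosome 5 from 132 to 133 Mb fell from 240.0, 238 and 221 CPM to 142, 153 and 152 (−0.65 ± 0.05), with 9 of 11 domains negative. On chromosome 12 from 109 to 110 Mb, 12 of 58 domains were losses and 1 was a gain (−0.28 ± 0.02).

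At 6 months, 0 domains were called with edgeR (0.0% of those tested; 1402 autosomal domains had an unadjusted p under 0.05, and 1802 without the library labelled tau replicate 1). Without that library, which leaves 1 tau library assumed to vary like the others, 8 were called (0.0181%), and 5 of them were the raised domains of the chromosome 2 cluster. Their log2 changes were then 1.88 to 4.25, beside 1.99 to 4.27 at 11 months. The library labelled tau replicate 1 was left out because it lacked the rise at these same 5 domains. Their calls and changes therefore rest on tau replicate 2 alone, already seen to be high there. They follow in part from that choice and are no independent sign of the rise at 6 months. Over all gains and losses of the older mice, the 6-month change had the same sign as at 11 months in 50.7% of gains and 51.9% of losses, or in 58.0% and 60.0% without that library. Over all domains tested, 49.4% had a positive 6-month change with that library, and the share without it was not taken. The median 6-month change was 0.00 over the gains and −0.01 over the losses (0.04 and −0.04 without that library).

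The difference between the ages was tested directly, in a fit of the 11 libraries. The tau effect differed in 1829 autosomal domains, more positive at 11 months in 448 and more negative in 1381. Over all 44105 domains tested, sex chromosomes included, 4.23% differed, 1.02% more positive and 3.21% more negative. Without the library labelled 6-month tau replicate 1, it differed in 931 autosomal domains, more positive in 173 and more negative in 758. Over all 44150 domains tested in that fit the shares were 2.15%, 0.392% and 1.76%. Of the losses, 50.6% passed this test with that library and 28.2% without it. Of the gains, 24.8% and 9.45% did. The loss on chromosome 6 at 65768348 had the most negative difference among the named domains, with −2.03 with the library and −2.31 without. The 5 domains of the chromosome 2 cluster did not pass (adjusted p of 0.68 to 0.89 with it and 0.47 to 0.995 without). These tests use the 11-month libraries again, so they are not independent of the comparison above, and sex changes with age. Cross correlation at 6 months was 0.254 in the library labelled tau replicate 1, 0.231 in tau replicate 2 and 0.245 ± 0.00303 (SD, n = 3) in wild type libraries.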

How the data were processed

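H3K9ac ChIP-seq counts of 3 tau and 3 wild type libraries at 11 months were analysed, with the other H3K9ac libraries as reference. The deposited table holds raw counts of reads in each domain, not normalized, and 0 of its columns lack a matching sample. The tools were BWA, Picard 1.1175 and MACS2 with build mm9, per the submitters' processing notes. How samples were combined in domain calling is not known from these sources. Per the labels' protocols reads were single-end. They carry no molecular identifiers.

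The test was that of edgeR 4.0.16 under R 4.3.3 (quasi-likelihood F test, robust, TMM, filterByExpr), two-sided, with Benjamini-Hochberg adjustment over all domains tested and a threshold of 0.05. The fit used the 6 libraries and all chromosomes, and autosomal domains are reported. Adjusted p-values in the text are from this test, and ± after a log2 change is its standard error. Domains with midpoints in a 1 Mb bin were summed and tested likewise. Shares of reads were compared by an exact permutation test. Domains of 19 autosomes were classed by width, into 5 equal classes of the level and of the level per kb in the 6-month wild type libraries, and into 4 of the number of other domains within 1 Mb.

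Domains named in each direction are the 6 with the smallest adjusted p at a log2 change of at least 0.5, the smallest adjusted p in each width class, the 3 largest changes with at least 5 CPM in the higher group, and the best domain of the 2 longest runs. For bins they are the 3 with the smallest adjusted p. The comparison, classes and rules were chosen with earlier results of these data known. The fits were tested on simulated counts. Coordinates count from 1 on mm9. The gene table given is for another build, so no gene names or sequences are given and marker genes of cell types were not tested. Replicates differed by more than sampling noise (chi-square over its degrees of freedom between 1.38 and 1.89, for domains with 20 or more reads in a pair), so none was treated as a duplicate. Alternatives were other scalings (library totals, DESeq2 1.42.0 size factors, loess offsets), no filter, the DESeq2 Wald test, a threshold of 0.01, the cross correlation as a covariate, a replicate block, autosomes alone, all 11 tau-series libraries, other bin and window sizes, and each library left out.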

Additional observations from a re-analysis of the deposited data

Results flagged for a closer look

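The tau effect differed between 11 and 6 months, by the test of the difference itself (edgeR, adjusted p under 0.05), in 1829 autosomal domains, and in 931 without the library labelled 6-month tau replicate 1. Over all 44105 domains tested with all libraries, 4.23% differed. With cross correlation as a covariate, 402 autosomal domains differed. Sex changes with age, so the 2 cannot be told apart here. Among the named domains, 21 passed with all libraries. Domains were named by their 11-month change, which enters this test, so their passing is a description and no independent support. The 11-month minus 6-month log2 effects of the 21 follow, each with the value without that library in parentheses.

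For the losses the difference was −0.96 at chr9:58043494 (−0.97), −1.10 at chr2:28061404 (−1.06), −1.12 at chr9:106554205 (−1.13), −2.03 at chr6:65768348 (−2.31) and −0.92 at chr16:18127873 (−0.83). It was −1.14 at chr5:31394177 (−1.13), −0.76 at chr15:98633780 (−0.67), −1.54 at chr1:122236851 (−1.72), −0.49 at chr3:88010093 (−0.45) and −0.86 at chr15:79631845 (−0.78). Narrower domains had −1.06 at chr6:117960606 (−1.01), −1.44 at chr5:143170112 (−1.71), −1.47 at chr16:94346749 (−1.63) and −1.63 at chr7:106046176 (−1.95). For the gains the difference was 1.23 at chr10:79535676 (1.2), 0.98 at chr9:85218538 (1.01), 0.80 at chr2:160189559 (0.78) and 1.32 at chr4:136445026 (1.08). It was 1.18 at chr11:86398403 (0.93), 1.26 at chr19:34714541 (1.11) and 0.67 at chr17:34323430 (0.60). Without that library, 20 of the 21 passed, and the domain at chr16:94346749 had an adjusted p of 0.073.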

How the results depend on the processing

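Of the 27 named domains, all kept their direction and their side of the threshold under the alternatives that gave an adjusted p, except the covariate, where 21 did and 6 lost the threshold with the same direction. The DESeq2 Wald test gave an adjusted p for 26 of them, and none for the domain at chr7:106046176. Domains called (4163, 1555 higher and 2608 lower) came to 2367 with the DESeq2 Wald test (666 and 1701), to 317 with the covariate (90 and 227) and to 2489 at a threshold of 0.01 (738 higher). Leaving out 1 library gave 2702 to 4856 (863 to 1932 higher, 1810 to 2924 lower). The count fell by over 1.5 times without tau replicate 3 (2721) or wild type replicate 2 (2702), and that of gains also without wild type replicate 1 (985). Bins called (798, 375 and 423) came to 1292 at 0.5 Mb (582 and 710), 503 at 2 Mb (234 and 269) and 52 with the covariate (19 and 33), with 217 higher at a threshold of 0.01. Leaving out 1 library gave 585 to 901 bins (247 to 415 higher, 335 to 486 lower), with the fewest higher bins, 247, without tau replicate 3. Domains with a different effect between ages (1829) came to 974 with DESeq2 (155 and 819), 402 with the covariate (76 and 326), and 931 to 2527 with 1 library left out (173 to 711 and 758 to 1816). The 448 more positive ones moved by over 1.5 times without 11-month tau replicate 2 (711) or 3 (266), 6-month tau replicate 1 (173), or 6-month wild type replicate 2 (242) or 3 (296). At 6 months, 0 domains became 8 without tau replicate 1, an alternative chosen after seeing the data. The cause of these changes was not tested.

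Median log2 changes moved with the scaling. With library totals and loess offsets they were −0.0779 and −0.0330 at 5000 bp or more (−0.117 with TMM; −0.127 to −0.0969 with 1 library left out), 0.0230 and 0.0286 in the densest class, 0.0209 and 0.0311 in the class with the highest level, 0.0448 and 0.0172 with the fewest neighbours, and 0.0585 and 0.0345 with the most, and with library totals 0.0956 under 500 bp. With the fewest neighbours (0.00575) the median was −0.00317 with all 11 libraries, −0.000475 in a 0.5 Mb window, and −1.77e-05 to 0.00936 with 1 library left out. Median changes that pass through 0 have no direction. The replicate numbers paired the samples weakly, if at all. Correlations of same-numbered deviations were 0.01 to 0.04, against −0.03 to 0.004 for other pairs, and each library correlated best with its own number. With a replicate block 4701 domains, 895 bins and 1799 differences between ages were called, and no named domain lost its call. The self-test made calls at this number of libraries. Narrow domains, with a median standard error of 0.36 log2 units, limit what small changes could be detected.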
